A study of Mus musculus with 10 samples.

Results

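The enzymes described here oxidise, conjugate or otherwise convert foreign compounds, fatty acids, sterols and retinoids. They were taken by name as all genes of the cytochrome P450 (Cyp, without Cyp51), flavin monooxygenase (Fmo), aldehyde dehydrogenase (Aldh), glutathione S-transferase (Gst) and UDP-glycosyltransferase (Ugt) families that had a value in all 10 libraries and averaged at least 10 estimated counts. This gave 79 of the 17465 genes with a value in all libraries, namely 31 Cyp, 6 Fmo, 18 Aldh, 20 Gst and 4 Ugt genes. Of the members, 78 passed the filter on low counts and were tested. Fmo6, which averaged 10.0 counts, did not pass. Another 79 genes of these families had a value in some library but were not members. Of these, 37 fell below the minimum, 39 were valued only in C and 3 only outside C. Just inside the minimum, after Fmo6, were Cyp4f37 at 10.6 counts and Gsto2 at 10.7 counts, and just outside were Gstm3 at 9.80 and Cyp4a12a at 8.43 counts.

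Messenger RNA of mouse lung was sequenced in 3 libraries titled HE, 4 titled Hy and 3 titled C. The series title names mice in which hypoxia caused pulmonary hypertension and that exercised aerobically, mice with the same hypertension, and wild-type mice. The labels do not spell out the prefixes, and all 10 libraries carry the genotype WT and 1 identical treatment text, so the groups keep their label names. The sources used here give no strain, age, sex or length of hypoxia or exercise. The labels do not state whether each library is another animal, so the p-values reflect the spread between these libraries alone, which may be partly technical.

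Cytochrome P450 enzymes and flavin monooxygenases add oxygen to drugs, pollutants and lipids, the first using electrons passed on by P450 oxidoreductase. Aldehyde dehydrogenases clear the reactive aldehydes that arise, and those of the 1a group make retinoic acid, the vitamin A hormone that Cyp26 enzymes break down again. Glutathione transferases and glucuronosyltransferases attach water-soluble groups to the products for export. In mouse lung much of this machinery sits in club cells, the secretory cells of the small airways, where Cyp2f2 turns inhaled naphthalene into a toxic epoxide.

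Total estimated counts ran from 16560649 to 17804039 per library, and the members took from 0.817% (Hy3) to 1.38% (Hy4) of them. Markers of club, ciliated, alveolar and endothelial cells were present in all libraries labelled lung. The C libraries were tabulated with another set of genes (18713 valued, against 17956 in Hy and HE), so a difference from C cannot be told apart from that processing. In whole tissue, fewer cells of a type and less RNA per cell cannot be told apart either. Marker sums set some libraries apart. The 9 cardiac muscle markers summed to 1600 CPM (library-size scaled counts, with TMM factors) in HE3, 2390 in Hy4 and 1584 in C1, against 45.2 to 660 in the remaining libraries. The 6 red cell markers summed to 38430 CPM in Hy3, against 724 to 8796 elsewhere.

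Few of these enzymes passed the test between groups. In HE against Hy, 0 of 78 members were called by edgeR's quasi-likelihood test at an adjusted p below 0.05, where 0% of all 14766 genes tested were called. In Hy against C, 10 members (12.8%) were called, 5 higher and 5 lower, against a background of 26.1% of all genes (15.1% higher and 11.0% lower). In HE against C, 7 members (8.97%) were called, 4 higher and 3 lower, against 20.4% of all genes (11.7% higher and 8.66% lower). In both comparisons with C the share of members called was below that of all genes, a difference that was not tested. The same C libraries served both comparisons.

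Promoters are shown for the 3 members with the smallest adjusted p-values in Hy against C (Cyp8b1, Cyp4v3 and Cyp4f18) and for Cyp1a1 and Cyp1b1, the textbook targets of the aryl hydrocarbon receptor. Each window holds 300 bases around a start site in RefSeq on GRCm38.p6, most of them before it. That site is the end of the gene's span for Cyp8b1, Cyp4v3 and Cyp1b1, lies 42 bases inside it for Cyp4f18, and lies 9685 bases inside it for Cyp1a1. Capitals mark matches on either strand to GCGTG, the core of the response element of the aryl hydrocarbon receptor, or to TGACNNNGC, the core of the antioxidant response element bound by Nfe2l2. Windows were found for 62 of the 79 members.
Cyp8b1: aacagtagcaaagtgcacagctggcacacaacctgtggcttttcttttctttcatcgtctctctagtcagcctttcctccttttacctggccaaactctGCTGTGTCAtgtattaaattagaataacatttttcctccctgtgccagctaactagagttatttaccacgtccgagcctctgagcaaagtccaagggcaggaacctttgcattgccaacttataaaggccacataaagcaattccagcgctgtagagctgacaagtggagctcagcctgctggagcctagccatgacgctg
Cyp4v3: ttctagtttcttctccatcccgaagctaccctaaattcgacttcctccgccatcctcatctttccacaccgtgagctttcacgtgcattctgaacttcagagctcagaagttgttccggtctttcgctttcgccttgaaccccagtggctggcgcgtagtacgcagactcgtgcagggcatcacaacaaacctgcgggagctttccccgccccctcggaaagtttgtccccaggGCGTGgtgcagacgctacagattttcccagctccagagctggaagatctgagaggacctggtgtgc
Cyp4f18: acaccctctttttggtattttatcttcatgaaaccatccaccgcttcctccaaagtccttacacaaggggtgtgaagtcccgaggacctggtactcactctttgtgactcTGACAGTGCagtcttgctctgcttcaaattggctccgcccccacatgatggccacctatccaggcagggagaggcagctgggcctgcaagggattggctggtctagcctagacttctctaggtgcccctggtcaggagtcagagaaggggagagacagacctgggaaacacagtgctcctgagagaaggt
Cyp1a1: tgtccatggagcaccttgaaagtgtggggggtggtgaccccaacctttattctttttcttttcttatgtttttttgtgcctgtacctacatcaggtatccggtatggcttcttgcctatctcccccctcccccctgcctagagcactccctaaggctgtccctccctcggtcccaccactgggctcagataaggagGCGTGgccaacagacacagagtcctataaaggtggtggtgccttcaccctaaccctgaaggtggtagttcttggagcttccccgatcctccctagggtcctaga
Cyp1b1: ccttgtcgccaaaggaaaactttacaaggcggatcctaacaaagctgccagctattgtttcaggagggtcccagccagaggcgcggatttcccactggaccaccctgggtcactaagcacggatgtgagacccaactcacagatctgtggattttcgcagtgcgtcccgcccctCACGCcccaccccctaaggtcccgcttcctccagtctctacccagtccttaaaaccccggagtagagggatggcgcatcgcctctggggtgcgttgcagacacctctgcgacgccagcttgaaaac

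Cyp8b1 lies at chr9:121914356-121916305, with the window at chr9:121916256-121916555 on the minus strand. Cyp4v3 lies at chr8:45305801-45333163, with the window at chr8:45333114-45333413 on the minus strand. Cyp4f18 lies at chr8:71988482-72009668, with the window at chr8:72009577-72009876 on the minus strand. The windows of Cyp1a1 (chr9:57697363-57697662, plus strand) and Cyp1b1 (chr17:79715012-79715311, minus strand) each held 1 match to GCGTG. Cyp4v3 held 1 such match too, and Cyp8b1 and Cyp4f18 each held 1 match to TGACNNNGC. GCGTG was present for 23 of 62 member genes (37.1%), against 35.2% of all 27025 genes with a window. TGACNNNGC was present for 9 of 62 (14.5%), against 14% of all genes. Both shares lay close to those of all genes, and a match of letters is not a binding site.

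The members spanned a wide range of levels. Per kilobase of exon, their median over all libraries was 5.95 CPM, with 9 above 100 and 12 below 1. Cyp2f2 led at 1569 CPM per kilobase, followed by the mu-class transferase Gstm1 at 565, the lung P450 Cyp4b1 at 312, the lung flavin monooxygenase Fmo2 at 264, the retinal dehydrogenase Aldh1a1 at 228 and the mitochondrial acetaldehyde dehydrogenase Aldh2 at 203. These 6 genes held between 66.0% (C1) and 75.7% (Hy4) of the members' summed CPM. Next came Cyp2b10, a P450 that the receptor Nr1i3 induces in liver, at 190, Gstm2 at 133 and the pi-class transferase Gstp1 at 130 CPM per kilobase. Fractional counts, which mark reads shared with a similar gene, occurred in 16 members, among them Cyp2a5, Fmo1, Gstp1 and the Ugt1a genes, whose values carry that uncertainty.

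**Figure D1:**
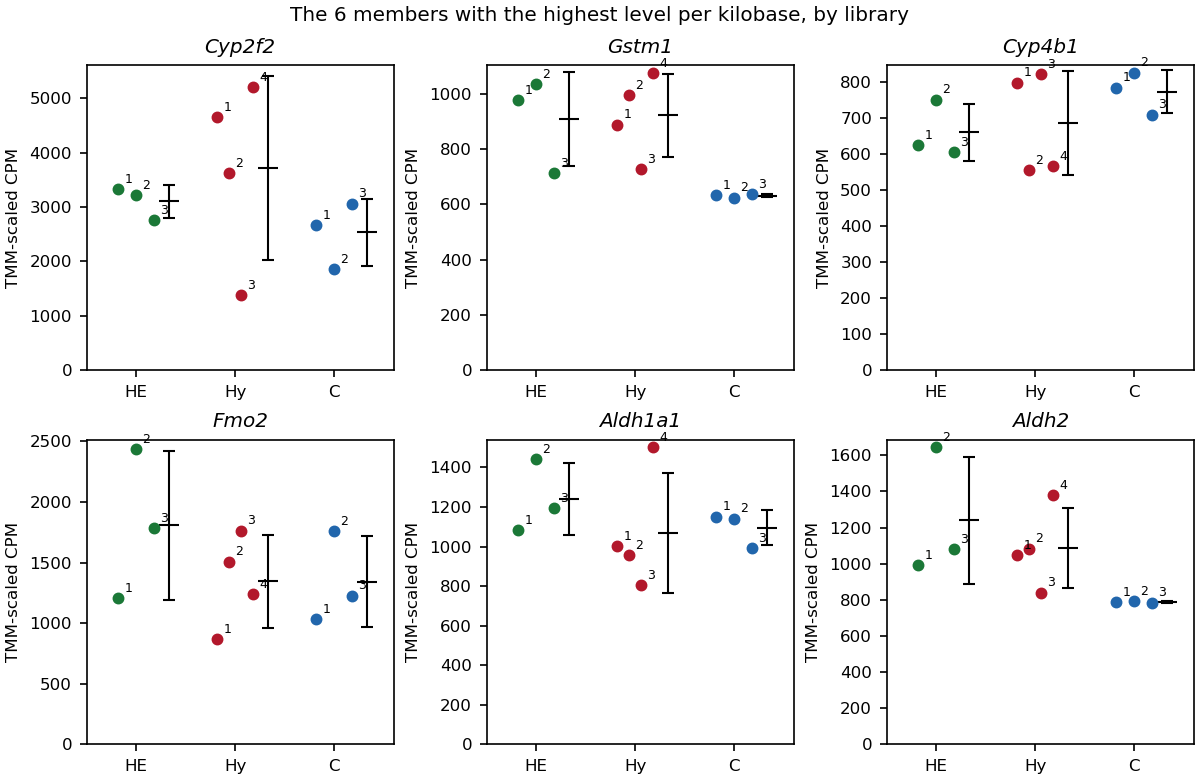
TMM-scaled CPM of the 6 members with the highest level per kilobase in 3 HE, 4 Hy and 3 C libraries; points are libraries labelled by number, and bars give the mean ± SD. Hy3 is lowest for Cyp2f2 at 1372 CPM, and the 3 C libraries lie close together for Gstm1 and Aldh2.

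Within groups the members varied more than genes in general. Their median coefficient of variation was 19.1% in HE, 29.1% in Hy and 15.9% in C, against 12.4%, 22.2% and 10.5% over all genes tested. One library stood out, since Hy3 was the lowest Hy library for 44 of 78 members (56.4%, against 35.8% of all genes). It was the lowest of all 10 libraries for 26 members, whereas Hy4 was the highest of all 10 for 18. For these counts no share over all genes is given, so they are only a description.

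The P450s of families 1 to 3, which handle foreign compounds, numbered 14, of which 0 were called by edgeR in any comparison. An unadjusted p below 0.05 was found for 1 in HE against Hy, 3 in Hy against C and 2 in HE against C. Of all 14766 genes, 734, 5945 and 5317 had such a p in these comparisons. Cyp2f2 had 3333, 3215 and 2765 CPM in HE, 4652, 3628, 1372 and 5212 CPM in Hy, and 2673, 1863 and 3063 CPM in C. The Hy values reached both above and below those of the other groups, and the log2 fold change was 0.55 ± 0.38 (SE) in Hy against C, with an adjusted p of 0.297. Without Hy3 the value was 0.82 ± 0.20 and it was called, with an adjusted p of 0.0113. Scgb1a1, the main secretory protein of club cells, was also lowest in Hy3 and highest in the other Hy libraries. It had 33720, 53820 and 34740 CPM in HE, 94230, 67760, 20980 and 80800 CPM in Hy, and 26110, 29310 and 31070 CPM in C. Among the HE libraries the orders differed, with the most Scgb1a1 in HE2 and the most Cyp2f2 in HE1. Per 100 CPM of Scgb1a1, Cyp2f2 stood at 9.88, 5.97 and 7.96 CPM in HE, 4.94, 5.35, 6.54 and 6.45 CPM in Hy, and 10.2, 6.36 and 9.86 CPM in C. None of the 12 club cell or 12 ciliated cell markers was called in any comparison. The 12 club markers summed to between 35410 and 54780 CPM in HE, 21490 and 96140 in Hy, and 29970 and 32050 in C. Most of each sum was Scgb1a1. Over the 12 in Hy against C, log2 fold changes ran from -5.85 (Bpifa1) to 1.19 (Scgb1a1), with a median of 0.135. The part of these markers in the Cyp2f2 values was not tested.

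The genes most like Cyp2f2 in log2 CPM over the 10 libraries were Dnaaf2 (Pearson r = 0.983), Syt5 (0.958) and Itpka (0.957). Marker sums differed widely between these libraries, so the likeness is only a description, and its source was not tested.

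Cyp1a1, the P450 most strongly induced through the aryl hydrocarbon receptor, had 0.402, 3.15 and 0.552 CPM in HE, 8.72, 0.236, 0.374 and 1.33 CPM in Hy, and 4.91, 9.03 and 25.9 CPM in C. Every HE library was below every C library, and Hy1 alone of the Hy libraries overlapped with C. The log2 fold change was -3.28 ± 1.29 in HE against C, which missed the threshold with an adjusted p of 0.0974, and -2.31 ± 1.11 in Hy against C (adjusted p of 0.146). Without Hy1 both were called, at -4.34 ± 1.00 in Hy (adjusted p of 0.0156) and -3.28 ± 0.92 in HE (adjusted p of 0.0349), and with only HE and C fitted the adjusted p in HE was 0.0401. Of the other tools, limma-voom called it lower in Hy, with an adjusted p of 0.0437, and DESeq2 did not. Cyp1b1, its relative in stromal cells, had 5.00, 3.33 and 4.86 CPM in HE, 7.29, 4.42, 4.06 and 7.88 CPM in Hy, and 10.7, 3.73 and 5.23 CPM in C, and the groups overlapped. Cyp2s1, a P450 of epithelia, ranged from 112 to 161 CPM in HE, 89.0 to 289 CPM in Hy and 111 to 167 CPM in C.

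Cyp2b10 had 385, 433 and 402 CPM in HE, 261, 342, 404 and 369 CPM in Hy, and 523, 470 and 424 CPM in C. Every Hy library lay below every C library, while the log2 fold change of -0.46 ± 0.16 missed the threshold with an adjusted p of 0.0544. DESeq2 called it lower, with an adjusted p of 0.0164.

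Cyp2e1, which oxidises ethanol and small solvents, had 11.7, 10.2 and 90.3 CPM in HE, 6.75, 5.66, 5.18 and 8.72 CPM in Hy, and 57.3, 10.8 and 11.0 CPM in C. It was the only member whose HE and Hy libraries did not overlap (1.28% of members, against 4.50% of all genes), with a log2 fold change of 2.51 ± 0.83 and an adjusted p of 0.761. Without HE3 that value was 0.74 ± 0.62. Hy also lay wholly below C, at -2.00 ± 0.82 with an adjusted p of 0.0972, which became 0.0325 without HE3 and 0.0482 with only these groups fitted, while without C1 the value was -0.73 ± 0.76. HE3 and C1 were far above the rest. The same 2 libraries led the sum of the 7 tested adipocyte markers, which was 49.1, 21.4 and 245 CPM in HE, 15.6, 16.7, 13.4 and 34.4 CPM in Hy, and 364, 7.92 and 16.8 CPM in C. The defining adipocyte gene Adipoq was at 0 in Hy3 and C2, and the part of fat in the Cyp2e1 values was not tested.

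Cyp2a5, a nicotine and coumarin hydroxylase of airway epithelium, had 86.9, 39.4 and 107 CPM in HE, 15.6, 17.4, 7.49 and 138 CPM in Hy, and 272, 13.05 and 13.2 CPM in C. Bpifa1, a secreted protein of the upper airway, had 128, 1.70 and 497 CPM in HE, 0.896, 1.00, 0.125 and 28.4 CPM in Hy, and 1319, 0.175 and 0.227 CPM in C. The 4 libraries with the most Cyp2a5 were the 4 with the most Bpifa1, and the part of the sampled airway was not tested. The groups overlapped, with a log2 fold change of 0.80 ± 1.23 in HE against Hy.

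**Figure D2:**
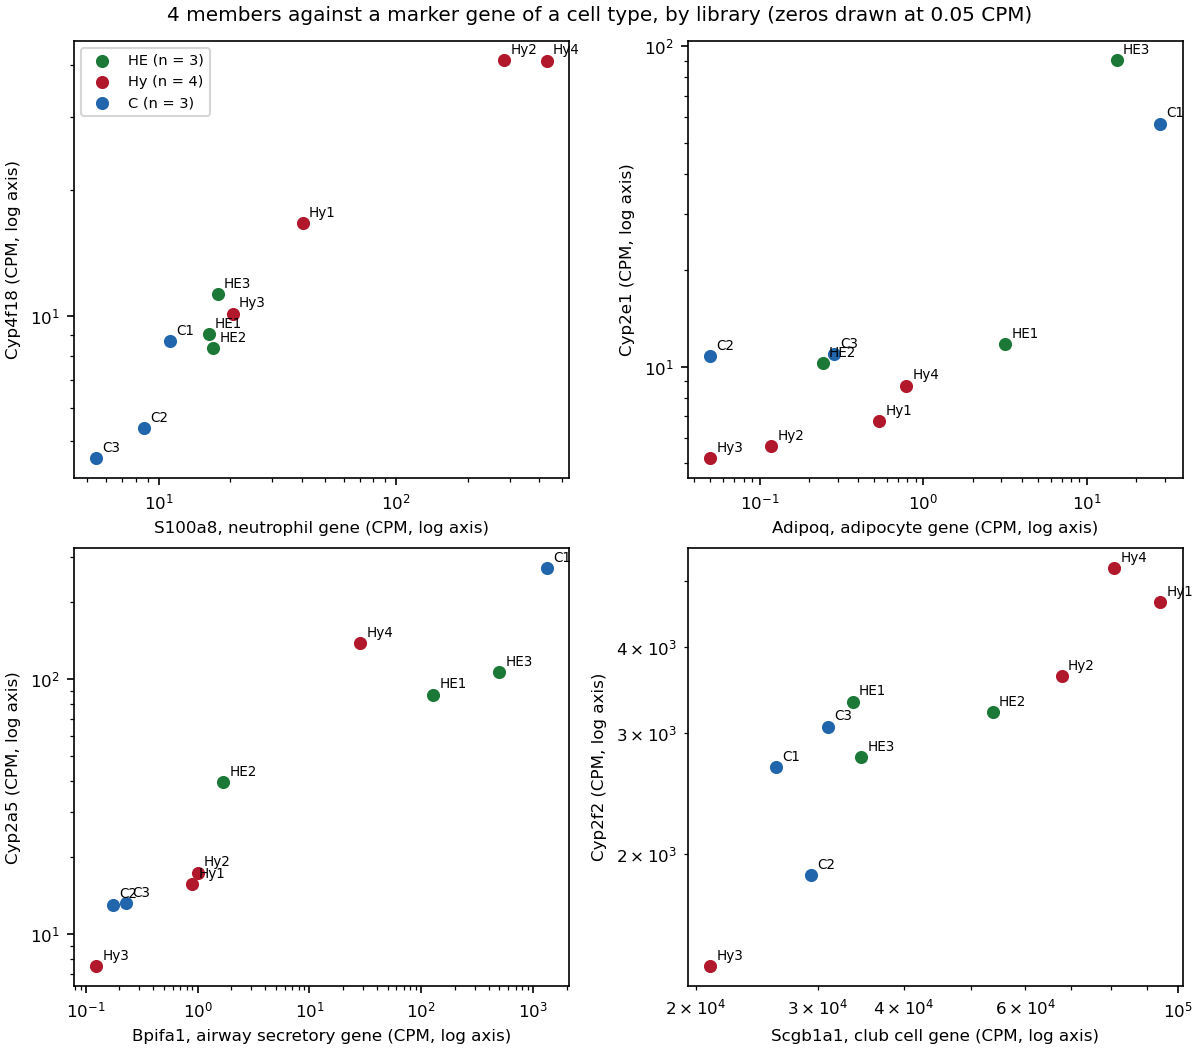
Levels of 4 members (vertical, CPM, log axis) against a marker gene (horizontal, CPM, log axis), 1 point per library coloured by group, with zeros drawn at 0.05 CPM. Cyp4f18 is highest in Hy2 and Hy4 with S100a8, Cyp2e1 in HE3 and C1 with Adipoq, Cyp2a5 in C1 with Bpifa1, and Cyp2f2 is lowest in Hy3 with Scgb1a1.

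The P450s of family 4, which hydroxylate fatty acids and eicosanoids, held 4 of the 10 calls in Hy against C and 3 of the 7 in HE against C. Of 10 members, 3 rose and 1 fell in Hy against C (40%, against 26.1% of all genes), with a median log2 fold change of 0.50 against 0.03 for all genes. Against C, HE had 2 that rose and 1 that fell (30%, against 20.4% of all genes), with a median of 0.44 against 0.02. The roles were set after the values were seen, so these shares are only a description. Cyp4f13 had 26.2, 39.3 and 27.6 CPM in HE, 25.6, 28.01, 25.2 and 29.3 CPM in Hy, and 18.4, 18.6 and 17.3 CPM in C. All 7 HE and Hy libraries were above the C libraries, and the log2 fold change was 0.58 ± 0.15 in Hy against C (adjusted p of 0.0210) and 0.78 ± 0.16 in HE against C (adjusted p of 0.0112). Cyp4f16 had 16.0, 16.1 and 17.2 CPM in HE, 17.7, 18.1, 14.1 and 14.7 CPM in Hy, and 10.9, 13.2 and 11.0 CPM in C. It rose by a log2 fold change of 0.46 ± 0.14 in Hy (adjusted p of 0.0376) and 0.49 ± 0.15 in HE (adjusted p of 0.0447), and again no HE or Hy library overlapped with C. Cyp4f16 carried fractional counts in 7 libraries, which marks reads shared with a similar gene, so its share of them is uncertain.

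Cyp4f18, which in mouse neutrophils inactivates the leukotriene that attracts these cells, had 9.03, 8.36 and 11.3 CPM in HE, 16.7, 41.0, 10.1 and 41.0 CPM in Hy, and 8.70, 5.36 and 4.55 CPM in C. Hy2 and Hy4 were the highest, and all 4 Hy libraries exceeded the C libraries. The log2 fold change was 2.13 ± 0.48 in Hy against C (adjusted p of 0.0119), 0.62 ± 0.49 in HE against C (adjusted p of 0.391) and -1.51 ± 0.47 in HE against Hy (unadjusted p of 0.00844, adjusted p of 0.739). The 10 neutrophil markers summed to 107, 114 and 221 CPM in HE, 180.5, 1230, 119 and 2169 CPM in Hy, and 207, 61.6 and 43.8 CPM in C. Of these markers 6 were called higher in Hy against C, among them S100a8, and their part in the Cyp4f18 values was not tested. Without Hy2 and Hy4 the Cyp4f18 log2 fold change was 1.10 and its adjusted p 0.0755.

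Cyp4v3, a fatty acid hydroxylase whose human counterpart is mutated in a crystalline retinal dystrophy, had 32.7, 37.6 and 36.3 CPM in HE, 33.1, 30.0, 41.4 and 26.7 CPM in Hy, and 62.2, 47.2 and 56.5 CPM in C. All HE and Hy libraries were below the C libraries. It fell by 0.75 ± 0.16 on the log2 scale in Hy (adjusted p of 0.00871) and by 0.64 ± 0.17 in HE (adjusted p of 0.0269). Cyp4b1, the abundant member of the family, had 624, 751 and 604 CPM in HE, 798, 556, 822 and 567 CPM in Hy, and 784, 826 and 710 CPM in C, and was not called in any comparison.

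Among the 6 P450s of sterol metabolism or of unassigned substrate, Cyp8b1 had the greatest fold change of all called members. This enzyme makes the precursor of cholic acid in liver. It had 0.230, 0.363 and 0.0552 CPM in HE, 0.179, 0.413, 0.187 and 0.424 CPM in Hy, and 4.01, 3.67 and 6.02 CPM in C. The C libraries were far above all others. It fell by 3.89 ± 0.49 on the log2 scale in Hy (adjusted p of 0.00115) and by 4.37 ± 0.57 in HE (adjusted p of 0.00178). Cyp8b1 overlaps no other gene, and it was the only member that kept its call under all 21 alternatives in both comparisons with C. Of the 8 hepatocyte markers, 4 were tested, and their sum ran from 8.51 to 10.7 CPM in HE, 5.12 to 7.78 CPM in Hy and 4.83 to 8.27 CPM in C. Among these Alb, the gene of serum albumin, had 0.517, 0.727 and 0.497 CPM in HE, 0.657, 0.590, 0.312 and 0.485 CPM in Hy, and 4.07, 2.85 and 2.67 CPM in C. It fell by 2.63 ± 0.35 on the log2 scale in Hy and by 2.45 ± 0.38 in HE, whereas Serpina1a, another liver secretory gene, rose by 1.44 ± 0.36 in Hy and by 2.26 ± 0.38 in HE. The separate tabulation of the C libraries cannot be told apart from these differences.

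Cyp27a1, the mitochondrial sterol hydroxylase that also serves the acidic pathway of bile acid synthesis, had 32.3, 36.7 and 28.7 CPM in HE, 29.9, 36.7, 19.2 and 30.2 CPM in Hy, and 16.4, 22.2 and 19.6 CPM in C. It rose by a log2 fold change of 0.75 ± 0.22 in HE against C (adjusted p of 0.0376), with no overlap. In Hy the fold change was 0.58 ± 0.21 with an adjusted p of 0.0617, and Hy3 lay within the range of C. DESeq2 called it in Hy too.

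The retinoid enzymes numbered 5 here, namely 4 retinal dehydrogenases or their close copies and Cyp26b1. By edgeR 0 were called, and only in HE against C did 1 of them, Aldh1a3, have an unadjusted p below 0.05. Aldh1a1 had 1084, 1441 and 1194 CPM in HE, 1000, 958, 805 and 1505 CPM in Hy, and 1151, 1141 and 992 CPM in C. Its close mouse copy Aldh1a7 ranged from 59.5 to 71.9 CPM in HE, 44.6 to 113 CPM in Hy and 83.0 to 117 CPM in C. Neither gene separated Hy from C, whereas all HE libraries were below C for Aldh1a7 (log2 fold change of -0.58 ± 0.29, adjusted p of 0.175). Aldh1a2, the retinal dehydrogenase of mesothelium and stroma, had 9.95, 8.42 and 30.1 CPM in HE, 19.7, 12.3, 15.1 and 1.64 CPM in Hy, and 11.6, 10.1 and 6.65 CPM in C. Aldh1a3 was low throughout, between 0.363 and 0.883 CPM in HE, 0.590 and 0.909 CPM in Hy, and 0.455 and 2.23 CPM in C. Cyp26b1, which degrades retinoic acid, had 19.2, 23.5 and 8.06 CPM in HE, 17.1, 26.4, 8.43 and 8.60 CPM in Hy, and 25.5, 76.9 and 9.38 CPM in C. C2 was the highest library, and the groups overlapped.

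Beyond these enzymes, retinoid carriers, reductases and receptors were read as a list of 25 genes, of which 21 were tested. In Hy against C, 5 rose and 2 fell (33.3%, against 26.1% of all genes), with a median log2 fold change of 0.33 against 0.03 for all genes. For HE against C, 6 rose and 0 fell (28.6%, against 20.4%), with a median of 0.18 against 0.02, and in HE against Hy 0 were called. The retinoic acid receptor Rara had 106, 113 and 87.9 CPM in HE, 123, 153, 136 and 171 CPM in Hy, and 72.2, 70.1 and 71.0 CPM in C. It rose by a log2 fold change of 1.04 ± 0.14 in Hy (adjusted p of 0.00148) and 0.52 ± 0.14 in HE (adjusted p of 0.0300). Its partner Rxrb rose by 0.59 ± 0.11 in Hy (adjusted p of 0.00514) and 0.72 ± 0.11 in HE (adjusted p of 0.00407). The receptor Rarg rose by 0.78 ± 0.18 in Hy (adjusted p of 0.0139), and the retinal reductase Rdh11 rose by 0.64 ± 0.15 in HE (adjusted p of 0.0161).

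The flavin monooxygenases gave 0 calls by edgeR among 5 tested members, of which only Fmo1 had an unadjusted p below 0.05, in Hy against C. Fmo2, the main form in mouse lung, had 1207, 2437 and 1782 CPM in HE, 866, 1507, 1764 and 1239 CPM in Hy, and 1034, 1759 and 1227 CPM in C. The groups overlapped. Fmo1 had 333, 506 and 373 CPM in HE, 549, 317, 209 and 337 CPM in Hy, and 547, 709 and 603 CPM in C. All HE libraries and 3 of the 4 Hy libraries were below C, with log2 fold changes of -0.62 ± 0.30 in HE (adjusted p of 0.172) and -0.81 ± 0.28 in Hy (adjusted p of 0.0571). DESeq2 and limma-voom called Fmo1 lower in Hy, as did edgeR without Hy1 (-1.11 ± 0.22, adjusted p of 0.00997). Fmo5 ranged from 41.8 to 51.0 CPM in HE, 28.01 to 49.1 CPM in Hy and 31.3 to 39.0 CPM in C.

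Among the other 14 aldehyde dehydrogenases, 1 rose and 3 fell in Hy against C (28.6%, against 26.1% of all genes), and 1 rose and 1 fell in HE against C (14.3%, against 20.4%). Aldh16a1 had 27.0, 36.8 and 29.8 CPM in HE, 33.7, 29.8, 25.0 and 37.7 CPM in Hy, and 19.5, 20.2 and 20.3 CPM in C. It rose by a log2 fold change of 0.66 ± 0.16 in Hy (adjusted p of 0.0154) and 0.64 ± 0.17 in HE (adjusted p of 0.0255), but it overlaps the gene Pih1d1, and reads from both cannot be told apart without strand. Aldh18a1, which makes the precursor of proline from glutamate, had 9.95, 5.997 and 8.72 CPM in HE, 8.84, 7.96, 7.24 and 8.30 CPM in Hy, and 14.4, 14.3 and 11.8 CPM in C. It fell by 0.74 ± 0.19 on the log2 scale in Hy (adjusted p of 0.0187) and by 0.71 ± 0.20 in HE (adjusted p of 0.0337), with no HE or Hy library reaching C.

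Aldh1l2, the mitochondrial enzyme that oxidises formyl-tetrahydrofolate, had 1.32, 0.909 and 0.938 CPM in HE, 0.836, 1.36, 1.06 and 0.969 CPM in Hy, and 2.06, 2.27 and 1.76 CPM in C. It fell by 0.94 ± 0.30 on the log2 scale in Hy (adjusted p of 0.0433), and the same size of change in HE had an adjusted p of 0.0655. Aldh6a1, an enzyme of valine breakdown, had 71.8, 81.0 and 87.5 CPM in HE, 60.3, 73.9, 82.7 and 80.3 CPM in Hy, and 107, 94.2 and 92.1 CPM in C. It fell by 0.40 ± 0.13 in Hy (adjusted p of 0.0474), although it shares its span with Bbof1.

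Aldh2 had 993, 1645 and 1080 CPM in HE, 1048, 1084, 839 and 1378 CPM in Hy, and 786, 792 and 785 CPM in C. All HE and Hy libraries were above C, where the 3 values differed by less than 10 CPM. The log2 fold change missed the threshold at 0.65 ± 0.22 in HE (adjusted p of 0.0636) and at 0.47 ± 0.21 in Hy (adjusted p of 0.126), while DESeq2 called the gene higher in HE (adjusted p of 0.0236). Aldh3a1, an enzyme of cornea and airway that clears lipid aldehydes, ranged from 15.2 to 21.9 CPM in HE, 11.9 to 66.0 CPM in Hy and 8.33 to 39.6 CPM in C.

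**Figure D3:**
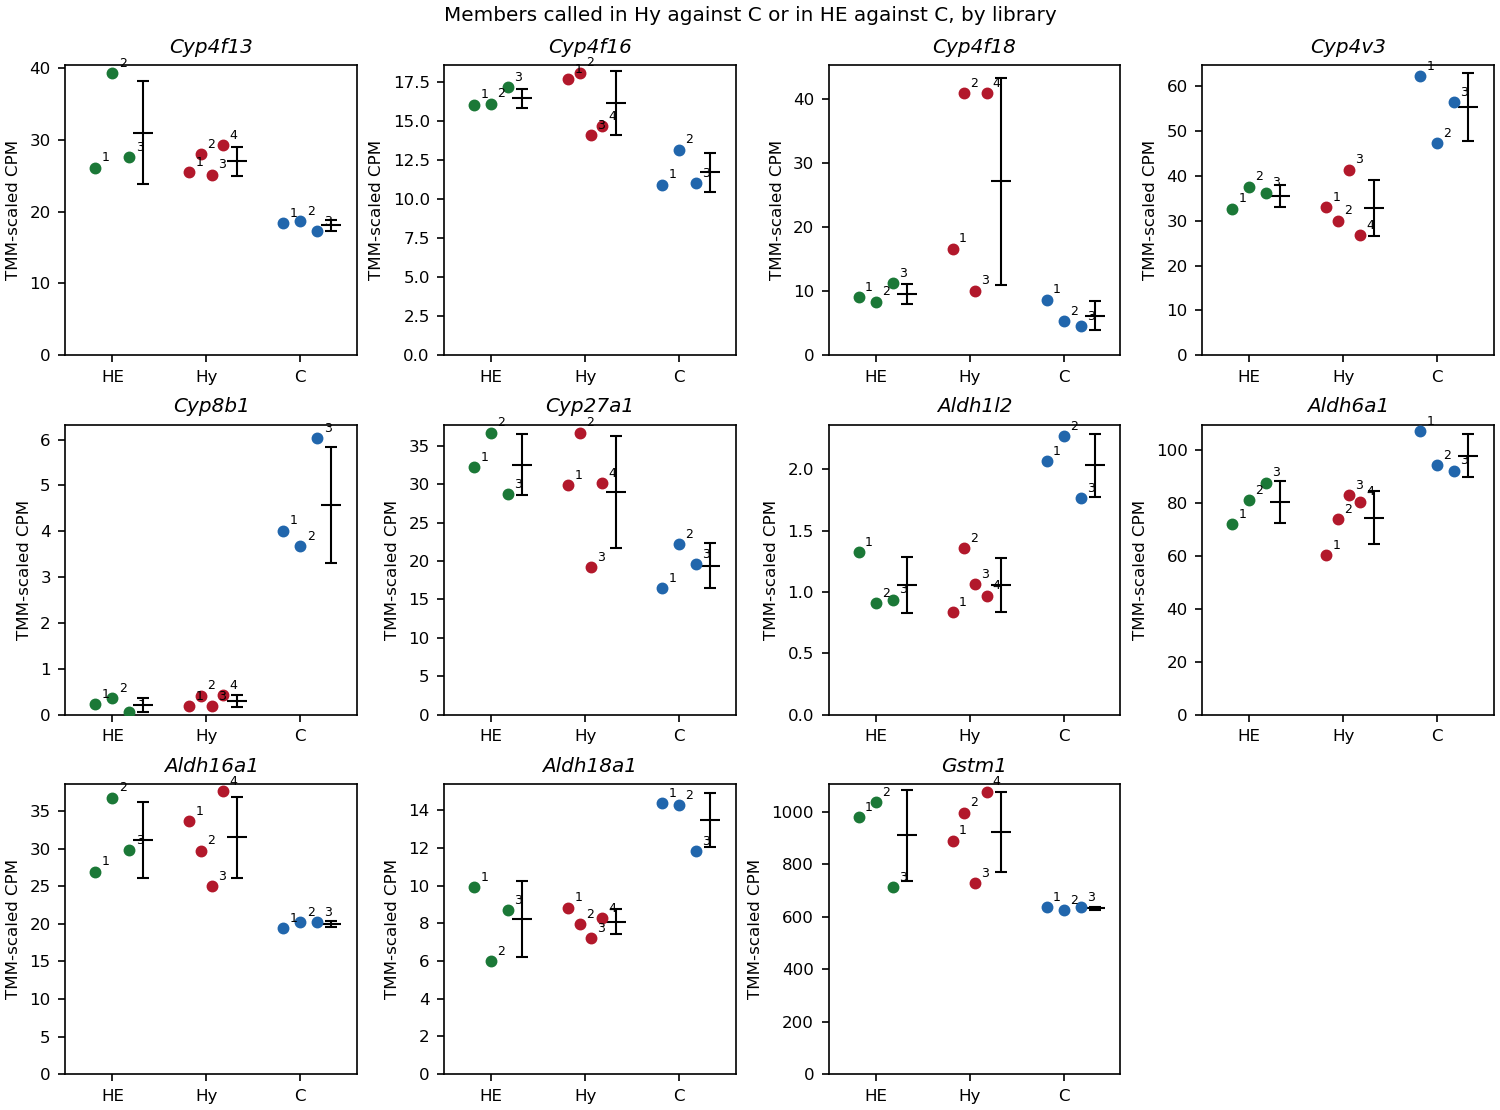
TMM-scaled CPM in 3 HE, 4 Hy and 3 C libraries of the 11 members called in Hy against C or HE against C; points are libraries labelled by number, and bars give the mean ± SD. Cyp8b1 is below 0.5 CPM in all HE and Hy libraries and above 3 CPM in all C libraries, and the other members differ by smaller steps.

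The glutathione transferases, 20 genes, gave 1 call in Hy against C (5%, against 26.1% of all genes). In HE against C they gave 0, against 20.4% of all genes, while DESeq2 called Gstm1 and Gstt1. There 4 of the 20 had an unadjusted p below 0.05 by edgeR, against 5317 of all 14766 genes. Fold changes in HE against C were positive for 17 of 20, with a median log2 value of 0.23 against 0.02 for all genes. Gstm1 had 979, 1037 and 714 CPM in HE, 889, 997, 727 and 1077 CPM in Hy, and 635, 625 and 636 CPM in C. It rose by a log2 fold change of 0.55 ± 0.18 in Hy (adjusted p of 0.0438), and in HE the value of 0.53 ± 0.19 had an adjusted p of 0.0697. No HE or Hy library overlapped with C. Gstm2 ranged from 217 to 263 CPM in HE, 163 to 316 CPM in Hy and 165 to 201 CPM in C. Gstp1 ranged from 190 to 261 CPM in HE, 138 to 274 CPM in Hy and 153 to 163 CPM in C, and its reads are shared with Gstp2. Gsta3, an alpha-class transferase, had 134, 266 and 153 CPM in HE, 120, 122, 82.8 and 167 CPM in Hy, and 119, 128 and 118 CPM in C, with a log2 fold change of 0.58 ± 0.26 in HE against Hy (adjusted p of 0.996).

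Gsta4, which conjugates the lipid aldehyde hydroxynonenal, ranged from 59.2 to 77.9 CPM in HE, 31.0 to 79.5 CPM in Hy and 72.2 to 84.3 CPM in C. Gstt1, a theta-class transferase, had 92.1, 117 and 104 CPM in HE, 124, 97.9, 59.4 and 80.7 CPM in Hy, and 66.8, 70.8 and 67.8 CPM in C. Its HE libraries were all above C, with a log2 fold change of 0.61 ± 0.22 and an adjusted p of 0.0777. Gstt3 ranged from 28.5 to 36.3 CPM in HE, 30.8 to 43.6 CPM in Hy and 24.0 to 31.4 CPM in C. Gsto1, an omega-class reductase, ranged from 65.9 to 146 CPM in HE, 44.3 to 97.7 CPM in Hy and 72.8 to 140 CPM in C. None of these 4 was called by edgeR.

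The UDP-glycosyltransferases gave 0 calls by edgeR among 4 genes, with 0 at an unadjusted p below 0.05. All 4 had negative fold changes in HE against C (median log2 value of -0.42, against 0.02 for all genes) and in HE against Hy (median of -0.37, against -0.01). In HE against Hy the sign of Ugt1a6a changed in some settings, such as without Hy4 (0.18) and with the replicate block (0.24). Ugt1a6a, which glucuronidates phenols, had 20.2, 21.99 and 21.7 CPM in HE, 25.4, 17.6, 13.2 and 36.8 CPM in Hy, and 45.2, 28.5 and 31.5 CPM in C. All HE libraries were below C (log2 fold change of -0.72 ± 0.32, adjusted p of 0.139). Ugt1a6a was called lower in Hy against C without Hy4 (-0.90 ± 0.25, adjusted p of 0.0374). Ugt1a7c stood at 2.18 to 2.98 CPM in HE, 2.97 to 5.49 CPM in Hy and 2.04 to 4.79 CPM in C. The Ugt1a genes share exons, so their signs are not separate readings. Ugt1a6a and Ugt1a7c both carried fractional counts in all 10 libraries, so the split between them is uncertain.

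**Figure D4:**
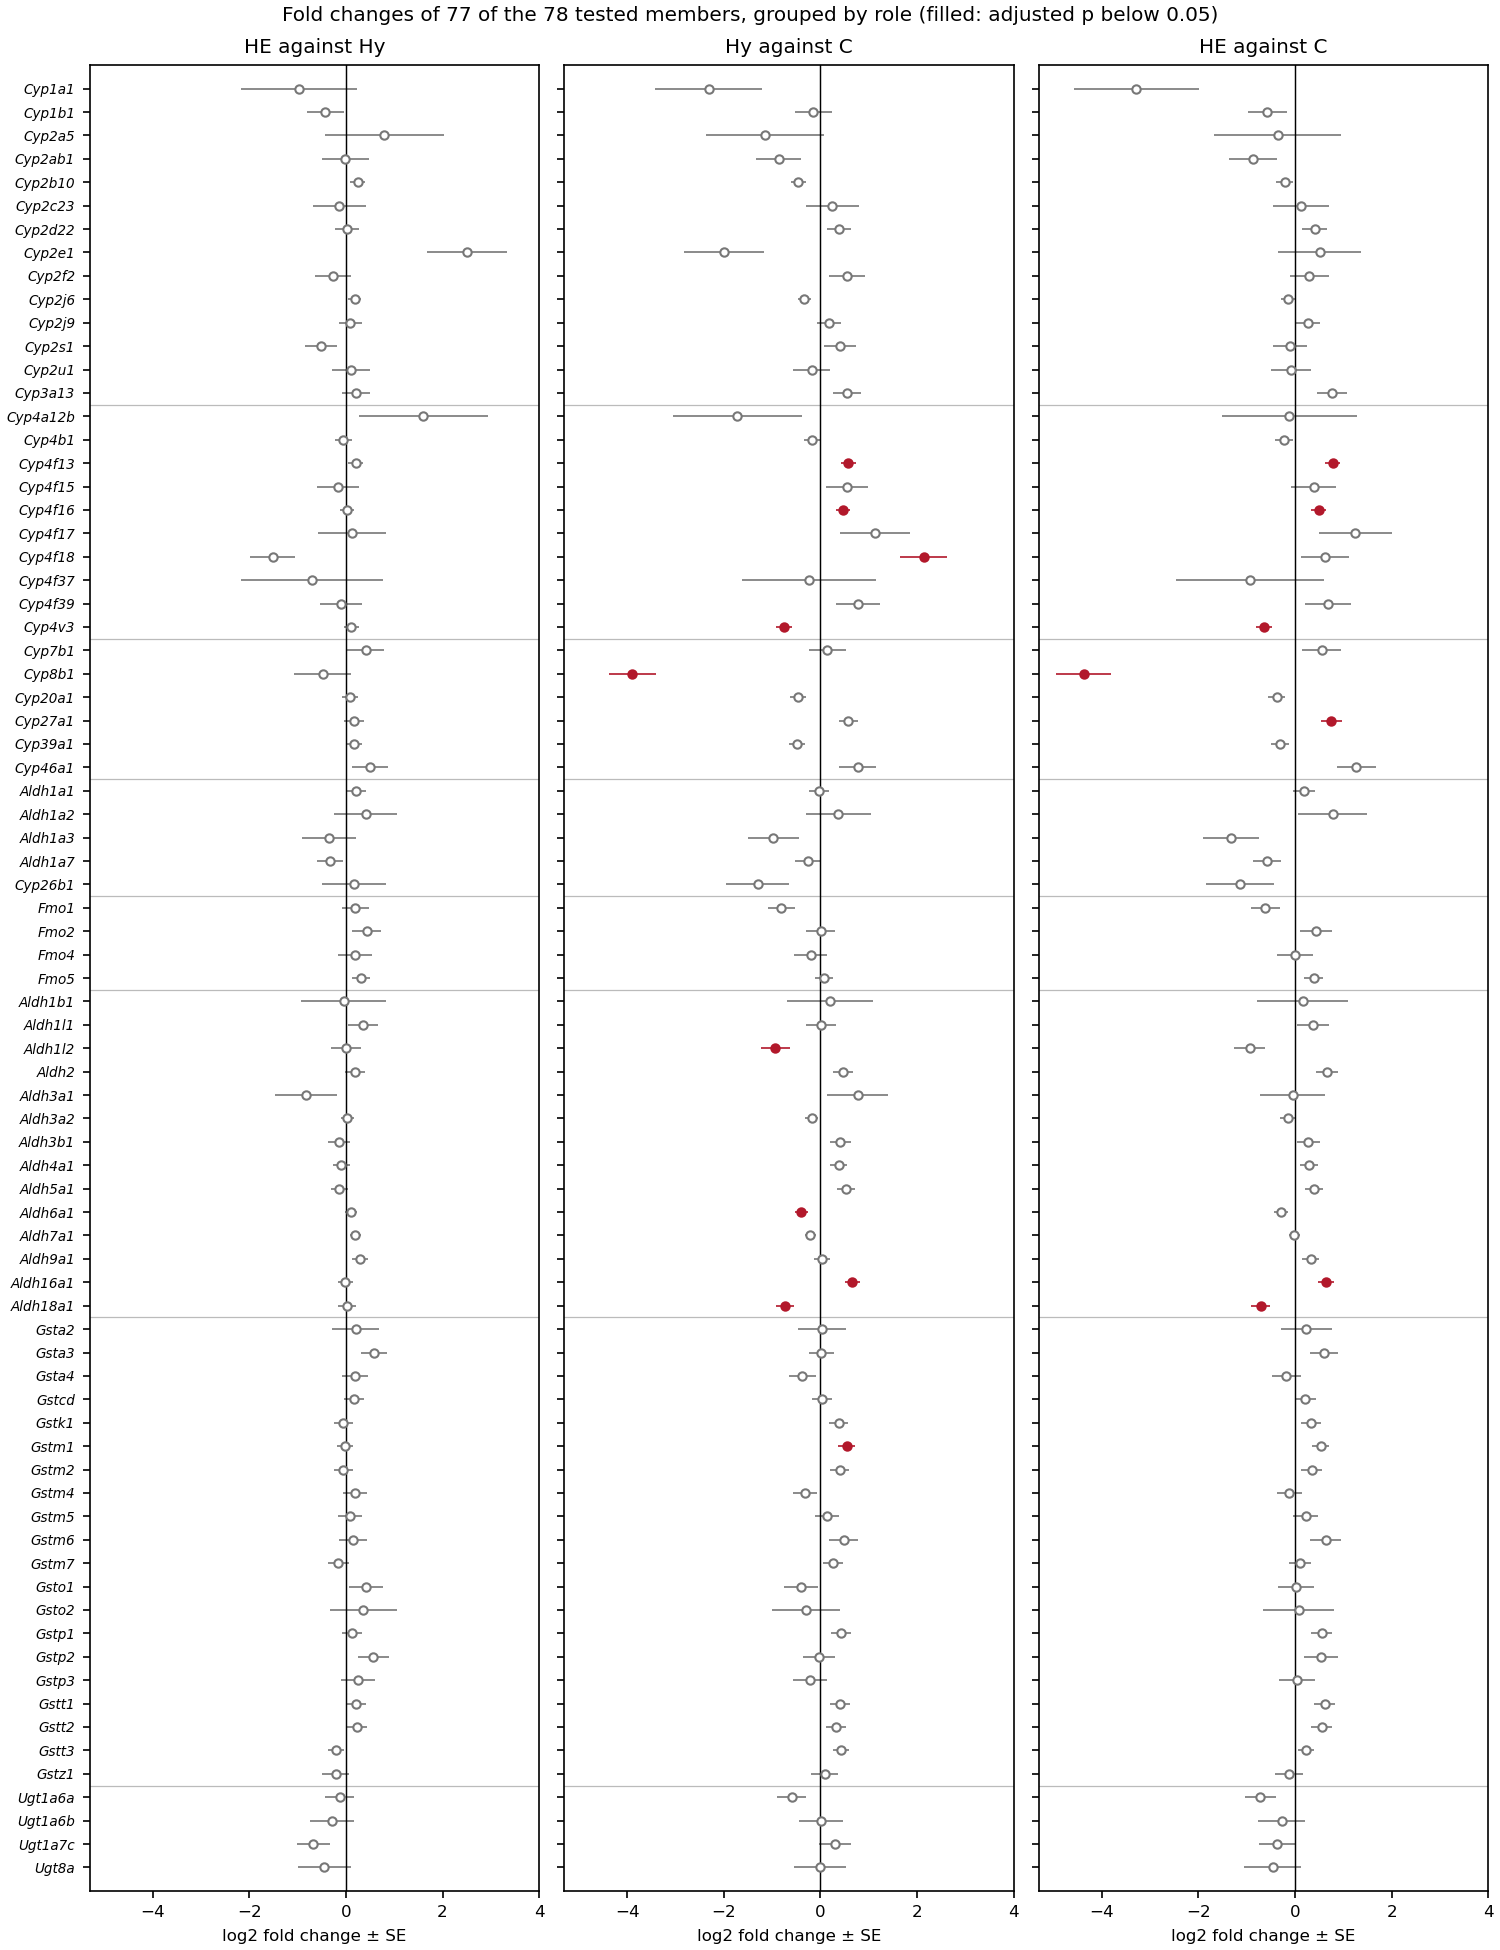
Log2 fold changes ± SE (horizontal) of 77 of the 78 tested members in HE against Hy, Hy against C and HE against C, with members ordered by role and grey lines between roles; filled red points have an adjusted p below 0.05. No point is filled in HE against Hy, 10 are in Hy against C and 7 in HE against C.

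In HE against Hy, 3 of 78 members had an unadjusted p below 0.05, namely Cyp4f18, Cyp2e1 and Gsta3, against 734 of all 14766 genes. DESeq2 called 48 genes and 0 members in this comparison. The median log2 fold change of the members was 0.10, against -0.01 for all genes.

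In Hy against C, the called members were Cyp4f18, Aldh16a1, Cyp4f13, Cyp4f16 and Gstm1, which rose, and Cyp8b1, Cyp4v3, Aldh18a1, Aldh1l2 and Aldh6a1, which fell. Aldh18a1 shares its span with a pseudogene, and Aldh1l2, Cyp4f18 and Cyp4v3 each share theirs with a gene for a long noncoding RNA. The members' median log2 fold change was 0.03, the same as for all genes, and 19 of 78 (24.4%) did not overlap between the groups, against 33.6% of all genes. The count of called members depended on single libraries, as did that of all genes. Without Hy3, 26 members were called, 18 higher and 8 lower, while calls over all genes went from 3850 to 5973. The 26 included Cyp2f2, Aldh2, Gstp1, Gstm2, Gstt1 and Gstt3. Without C1, C2 or C3 the count of members was 3, 2 and 3, and that of all genes 1972, 1681 and 1690. Leaving out both Hy2 and Hy4 gave 1 member, Cyp8b1, and 1070 of all genes. Leaving out C1, Hy4 and HE3 gave 1 member, again Cyp8b1, and 360 of all genes. With the replicate number as a block 1745 of all genes were called and 3 members, namely Cyp8b1 (adjusted p of 0.0116), Cyp4v3 (0.0352) and Ugt1a6a (0.0345). The other 8 members called in the main fit lost their call, with Cyp4f13 at 0.0553, Cyp4f18 at 0.0557, Aldh18a1 at 0.0566 and Aldh16a1 at 0.0609.

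In HE against C, Cyp4f13, Aldh16a1, Cyp27a1 and Cyp4f16 rose, and Cyp8b1, Cyp4v3 and Aldh18a1 fell. The members' median log2 fold change was 0.17, against 0.02 for all genes, and 28 of 78 (35.9%) did not overlap, against 51.7% of all genes. Of these 28, 17 were higher and 11 lower in HE. Without HE2 or HE3 the count of called members was 2 and 3, and that of all genes 1019 and 1889. Without C1, C2 or C3 the members numbered 2, 3 and 1, and all genes 1305, 1175 and 1014. A fit of these 2 groups alone called 19 members and 5408 of all genes, against 3013 of all genes in the main fit. Without Hy3, whose spread enters the shared fit, 13 members and 4712 of all genes were called. The added members were Aldh1a7, Aldh2, Cyp46a1, Gstm1, Gstp1 and Gstt1.

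Beyond the members, 7 lists covered the rest of the pathway. Of their 104 tested genes, 21 (20.2%) were called in Hy against C and 17 (16.3%) in HE against C, against 26.1% and 20.4% of all genes. Of the 11 receptors and partners that control these enzymes, 2 rose and 1 fell in Hy against C (27.3%, against 26.1% of all genes). In HE against C, 2 rose and 0 fell (18.2%, against 20.4%). Keap1, the inhibitor of the oxidant-responsive factor Nfe2l2, had 93.5, 90.3 and 84.8 CPM in HE, 94.6, 87.8, 86.6 and 101 CPM in Hy, and 63.4, 65.8 and 59.7 CPM in C. It rose by a log2 fold change of 0.55 ± 0.10 in Hy (adjusted p of 0.00455) and 0.51 ± 0.10 in HE (adjusted p of 0.0105). Nfe2l2 itself fell by 0.41 ± 0.12 in Hy (adjusted p of 0.0355), and the oxysterol receptor Nr1h3 rose by 0.91 ± 0.30 in Hy (adjusted p of 0.0469) and 1.02 ± 0.32 in HE (adjusted p of 0.0457).

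Of 11 electron donors and epoxide hydrolases, 1 rose in Hy against C (9.09%, against 26.1% of all genes). In HE against C, 2 rose and 1 fell (27.3%, against 20.4%). The gene that rose in Hy was Fdxr, which feeds electrons to mitochondrial P450s (log2 fold change of 0.97 ± 0.30, adjusted p of 0.0372). Its partner Fdx1 rose in HE against C (0.85 ± 0.26, adjusted p of 0.0449), as did the epoxide hydrolase Ephx1 (0.61 ± 0.19, adjusted p of 0.0457), and the cytochrome gene Cyb5b fell by 0.59 ± 0.18 (adjusted p of 0.0455). Of 27 other oxidising and reducing enzymes, 2 fell in Hy against C (7.41%, against 26.1% of all genes) and 1 in HE against C (3.7%, against 20.4%). Those in Hy were the monoamine oxidase Maob (by 0.83 ± 0.14, adjusted p of 0.00390) and the quinone reductase Nqo2 (by 0.42 ± 0.13, adjusted p of 0.0385). Maob fell in HE too (by 0.62 ± 0.15, adjusted p of 0.0204).

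Of 14 genes of glutathione turnover or its membrane transferases, 1 rose and 3 fell in Hy against C (28.6%, against 26.1% of all genes). In HE against C, 1 rose and 1 fell (14.3%, against 20.4%). Slc7a11, the cystine carrier, had 1.38, 0.909 and 1.16 CPM in HE, 1.43, 1.00, 0.874 and 3.45 CPM in Hy, and 8.20, 5.77 and 4.83 CPM in C. It fell by 1.89 ± 0.45 on the log2 scale in Hy (adjusted p of 0.0148) and by 2.44 ± 0.51 in HE (adjusted p of 0.0115), and no HE or Hy library reached C. Chac1, which degrades glutathione, fell by 1.80 ± 0.41 in Hy (adjusted p of 0.0128). Of 13 other conjugating enzymes, 0 rose and 3 fell in Hy against C (23.1%, against 26.1% of all genes). In HE against C, 0 rose and 2 fell (15.4%, against 20.4%). Ugp2 fell by 0.54 ± 0.11 in Hy (adjusted p of 0.00929) and by 0.51 ± 0.12 in HE (adjusted p of 0.0191). Hnmt, which methylates histamine, fell by 0.59 ± 0.19 in Hy (adjusted p of 0.0445) and by 0.66 ± 0.20 in HE (adjusted p of 0.0445). Ugdh, which like Ugp2 helps to make the sugar donor of glucuronidation, fell by 0.42 ± 0.13 in Hy (adjusted p of 0.0358). Of 8 export pumps, 1 rose in each comparison with C (12.5%, against 26.1% and 20.4% of all genes). This was Abcc10, by 0.90 ± 0.15 in Hy (adjusted p of 0.00334) and 0.89 ± 0.15 in HE (adjusted p of 0.00552). In HE against Hy, edgeR called 0 of the 104 tested genes of these 7 lists, retinoid handling included, and 5 had an unadjusted p below 0.05.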

How the data were processed

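The authors deposited, for each of 10 libraries, estimated counts per gene that were not normalised. Per the submitters' processing notes the build was GRCm38.p6, and the software was RSEM 1.2.12, HISAT2 2.0.4, DESeq 1.4.5 and Bowtie2 2.2.5, with no role stated. Between 91.0% and 93.6% of the values were whole. Counts were rounded, and symbols came from a RefSeq table on GRCm38.p6 that named 19150 of 19204 valued genes.

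Genes valued in all libraries were filtered with edgeR's default and fitted over the 3 groups in R 4.3.3 by edgeR 4.0.16 with TMM factors, robust quasi-likelihood dispersions and 7 residual degrees of freedom. Calls have a Benjamini-Hochberg adjusted p below 0.05 over 14766 genes, and the common biological coefficient of variation was 26.9%. Unless a sentence names another tool its p-values come from this test, and errors of fold changes are SE. Lengths per kilobase are merged exons of GENCODE M21. The script was tested on simulated counts with the same dispersion for every gene and library, unlike these data.

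The alternatives were DESeq2 1.42.0, limma-voom (limma 3.58.1), RLE factors, other filters, other sets of libraries, a 2-fold threshold, genes overlapping no other gene, and the replicate number as a block. Same-numbered Hy and C libraries correlated at 0.121 to 0.252 in their deviations from group means, and differently numbered ones at -0.377 to 0.450. The members and lists were chosen with earlier results of these data known, and the roles after the values were seen. Named were all called members, 28 fixed enzymes, up to 3 called genes of smallest p per list, and the 3 genes most like Cyp2f2. Some genes covered by the rule or lists are not reported here, and 1 of them was left out of its list's counts. Members named outside this rule (those near the minimum, those with an unadjusted p below 0.05 in HE against Hy) were chosen after their values were seen.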

Additional observations from a re-analysis of the deposited data

Results flagged for a closer look

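Among the 38 members followed by name, the highest or lowest of the 4 Hy libraries was set against the spread of that group (Dixon's criterion at 95%, on the gap divided by the range). Chance alone flags about 1 group in 20, and 2 of 38 were found. Cyp1a1 stood at 8.72 CPM in Hy1, against 0.236 to 1.33 CPM in the other Hy libraries, with a gap of 0.871 of the range. Cyp2a5 stood at 138 CPM in Hy4, against 7.49 to 17.4 CPM in the other Hy libraries, with a gap of 0.924 of the range. Hy4 also had 28.4 CPM of the airway gene Bpifa1, against 0.125 to 1.00 CPM in the other Hy libraries, and its part in the Cyp2a5 value was not tested. Without Hy1 the sign of the Cyp1a1 fold change in HE against Hy changed, and the gene was called lower in Hy against C (-4.34 on the log2 scale, adjusted p of 0.0156) and in HE against C (adjusted p of 0.0349).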

How the results depend on the processing

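Of the calls on members, those of Cyp8b1 held in both comparisons with C under all 21 alternatives, with adjusted p from 1.08e-10 to 0.0147 in Hy and from 7.38e-10 to 0.0259 in HE. Cyp4v3 held in 17 of 20 alternatives in Hy against C and 13 of 20 in HE against C, Cyp4f13 in 13 and 18 of 21, Aldh16a1 in 13 of 20 in each and Aldh18a1 in 14 and 12 of 20. Cyp4f18 held in 14 of 20 and Cyp27a1 in 13 of 21. Gstm1 and Cyp4f16 each held in 7 of 21 in Hy, Cyp4f16 in 9 of 21 in HE, Aldh1l2 in 6 of 20 and Aldh6a1 in 4 of 20. The directions of these called members did not reverse in the alternatives run. The cause of each lost call was not tested.

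In Hy against C, the count of called members was 16 with DESeq2, 6 with no filter on low counts, 3 with the replicate block, 1 without Hy2 and Hy4, 1 without C1, Hy4 and HE3, 1 against a 2-fold threshold and 6 among genes that overlap no other gene. Leaving out 1 library at a time gave from 2 to 26 members (lowest without C2, highest without Hy3) and from 1681 to 5973 of all genes. The count of all genes was 4782 with DESeq2, 3576 with no filter on low counts and 1745 with the block. It was 360 without C1, Hy4 and HE3, 1070 without Hy2 and Hy4, 127 against a 2-fold threshold and 2072 among non-overlapping genes. In HE against C, called members numbered 11 with DESeq2, 19 with only these groups, 1 without C1, Hy4 and HE3, 1 against a 2-fold threshold, 4 among non-overlapping genes and from 1 to 13 without 1 library. All genes called numbered 4009 with DESeq2, 5408 with only these groups and 498 without C1, Hy4 and HE3. They numbered 109 against a 2-fold threshold, 1587 among non-overlapping genes and from 1014 to 4712 without 1 library. In HE against Hy, 0 members were called in every alternative run, while of all genes 48 were called with DESeq2, 1 without Hy2 and Hy4 and from 0 to 6 without 1 library.

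Libraries of the same number correlated between Hy and C at 0.121, 0.252 and 0.130, all above the criterion of 0.1. The labels state no pairing, and Hy4 has no partner. Libraries of different number ran from -0.377 (Hy4 with C2) to 0.450 (Hy4 with C1), with 0.271 for Hy3 with C2. The same-numbered values thus lay within the range of the others. Beyond the 8 calls lost and the 1 gained with the block in Hy against C, Aldh18a1 (adjusted p of 0.0506) and Cyp4f16 lost theirs in HE against C, where the same numbers correlated at -0.103, 0.190 and -0.256. They correlated at -0.036, 0.059 and -0.017 between HE and Hy.

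Sign changes were seen in members that were not called, given here as log2 fold changes. With the replicate block, in HE against Hy, Cyp2f2 (0.022), Gstm1 (0.058), Aldh1a2 (-0.057), Cyp26b1 (-0.006), Ugt1a6a (0.24) and in Hy against C, Gsta3 (-0.18), Fmo5 (-0.017) and in HE against C, Aldh3a1 (0.14), Cyp2a5 (0.74). Without C1, Hy4 and HE3, in HE against Hy, Cyp2f2 (0.025), Gstm1 (0.21), Aldh1a2 (-0.77), Ugt1a6a (0.17) and in Hy against C, Gsta3 (-0.18), Fmo2 (-0.11), Cyp1b1 (0.23), Cyp2a5 (0.042) and in HE against C, Cyp2s1 (0.12), Aldh3a1 (0.86), Gsto1 (-0.031), Cyp2a5 (2.27). Without Hy2 and Hy4, in HE against Hy, Aldh3a1 (0.32), Cyp2f2 (0.048), Gstm1 (0.17), Aldh1a2 (-0.10), Ugt1a6a (0.14) and in Hy against C, Gsta3 (-0.28), Fmo5 (-0.30), Fmo2 (-0.046), Aldh3a1 (-0.37), Cyp4b1 (0.050). With DESeq2, in Hy against C, Gsta3 (-0.001), Fmo2 (-0.009) and in HE against C, Gsto1 (-0.007). With limma-voom, in Hy against C, Gsta3 (-0.028), Fmo2 (-0.009), Aldh1a2 (-0.060) and in HE against C, Aldh3a1 (0.28), Gsto1 (-0.009), Cyp2a5 (0.98). With RLE factors, in Hy against C, Gsta3 (-0.001), Fmo2 (-0.009) and in HE against C, Gsto1 (-0.007). With no filter, in Hy against C, Fmo2 (-0.006). With only the groups compared, in HE against C, Gsto1 (-0.016). With only non-overlapping genes, in Hy against C, Fmo2 (-0.016) and in HE against C, Gsto1 (-0.010). Without 1 library, the ranges of those that changed sign were as follows. In HE against Hy, Aldh1a2 (-0.41 to 0.74), Aldh2 (-0.067 to 0.33), Cyp1a1 (-2.46 to 1.06), Cyp26b1 (-0.15 to 0.57), Cyp4b1 (-0.16 to 0.040), Gsta4 (-0.022 to 0.36), Gstm1 (-0.12 to 0.13), Gstm2 (-0.21 to 0.093), Gstp1 (-0.043 to 0.27), Ugt1a6a (-0.32 to 0.18). In Hy against C, Aldh1a1 (-0.25 to 0.066), Cyp1b1 (-0.43 to 0.40), Cyp2a5 (-2.88 to 1.76), Fmo2 (-0.16 to 0.25), Fmo5 (-0.093 to 0.18), Gsta3 (-0.17 to 0.15). In HE against C, Aldh1a2 (-0.039 to 1.08), Aldh3a1 (-0.42 to 0.97), Cyp2a5 (-0.88 to 2.56), Cyp2e1 (-1.26 to 1.78), Cyp2s1 (-0.28 to 0.016), Gsto1 (-0.37 to 0.35). Over the 29, 38 and 38 members followed in HE against Hy, Hy against C and HE against C, 31 of 601, 33 of 785 and 22 of 785 alternative values had the other sign. With 3 or 4 libraries a group, members near 1 CPM had few counts, and the size of difference detectable there was not tested.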

Other observations

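Summed over each role, the P450s of families 1 to 3 had 4110, 3966 and 3582 CPM in HE, 5255, 4316, 1993 and 6145 CPM in Hy, and 3790, 2587 and 3799 CPM in C. Most of this was Cyp2f2. Glutathione transferases summed to 2013, 2288 and 1828 CPM in HE, 2149, 2009, 1399 and 2213 CPM in Hy, and 1574, 1499 and 1514 CPM in C, where the 3 libraries lay close together and only Hy3 among the others was lower. The other aldehyde dehydrogenases gave 1444, 2136 and 1602 CPM in HE, 1502, 1587, 1269 and 1942 CPM in Hy, and 1328, 1244 and 1233 CPM in C. The sterol and unassigned P450s summed to between 83.8 and 84.4 CPM in HE, 67.4 and 86.1 CPM in Hy, and 77.3 and 87.8 CPM in C, the narrowest spread of the 8 roles in HE. Flavin monooxygenases summed to 1629, 3064 and 2247 CPM in HE, 1478, 1925, 2040 and 1695 CPM in Hy, and 1660, 2547 and 1906 CPM in C, with HE2 and C2 the highest of their groups. These sums were not tested.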
